A study of Homo sapiens with 20 samples.

Results

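The immediate early transcription factors are genes that cells switch on within minutes of a growth factor or stress signal, without new protein synthesis. FOS and JUN family proteins pair into the dimeric factor AP-1, EGR proteins bind GC-rich sites through zinc fingers, and signalling by the MAP kinases ERK, JNK and p38 drives most of these genes through serum response elements and ETS factors. Serum and epidermal growth factor are classic inducers in epithelial cells, and p53, the tumour suppressor that arrests or kills damaged cells, is a transcription factor of another family.

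The set described here holds 10 genes of 18417 that could be named on the array, namely FOS, FOSB, FOSL1, FOSL2, JUN, JUNB, EGR1, EGR3, IER2 and ETV4. They were chosen by symbol, with earlier results of these data known. Whether each of the 10 is induced within minutes and without new protein synthesis in these cells was not tested. Each of the 10 had 1 transcript cluster (the probes of 1 transcription unit) with a single symbol in the platform annotation, so all 10 were measured and none was removed for low signal. The cells were B5/589, an immortalized human mammary epithelial line with a p53 transgene that doxycycline switches on. All groups shared that transgene and a medium with fetal bovine serum and epidermal growth factor, which was renewed every 24 h with or without doxycycline. The groups were 0, 3 and 5 ng of doxycycline for 24 h, and 5 ng and 3 ng for 12 h, with 4 arrays in each of the 5 groups. The labels give the doses in ng with no volume, uninduced cells at 24 h only, and nothing on whether the line is 1 clone or the 4 arrays of a group are separate cultures. The p-values therefore reflect array-to-array spread within these groups, and that spread may be only technical.

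The values are log2 signals as deposited. Array medians ran from 4.54 to 5.54, and the group means of these medians were 5.07, 4.85 and 4.80 at 0, 3 and 5 ng for 24 h, 4.96 at 5 ng for 12 h and 5.15 at 3 ng for 12 h. The brightest array was replicate 2 of 3 ng for 12 h, which was also the highest of its group for 10 of the 10 genes. The median log2 change of all genes was -0.23 for 3 ng and -0.24 for 5 ng against 0 ng at 24 h on the deposited values, against 0.08 and 0.07 after quantile normalization between arrays. Changes relative to that median and values after quantile normalization are therefore given beside the deposited ones. The epithelial keratins KRT5, KRT14, KRT8 and KRT18 averaged 12.02, 11.41, 12.58 and 12.66 over the 20 arrays. The fibroblast gene LUM, the leukocyte gene PTPRC and the endothelial gene PECAM1, each the lowest of its marker list, averaged -0.98, -0.47 and 1.64. The highest of the same lists, COL1A1, CD68 and KDR, averaged 6.2, 8.71 and 4.09, so not all of these markers were dim. Fewer cells of a type and less RNA per cell cannot be told apart in these bulk samples. CDKN1A, the p53 target that encodes the cell cycle inhibitor p21, averaged 8.62 ± 0.26, 9.34 ± 0.16 and 10.05 ± 0.07 at 0, 3 and 5 ng for 24 h (SD, n = 4 arrays each), so it separated the doses in the order of their labels.

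RefSeq promoters (GRCh38.p14, 250 bases before to 50 bases from the transcription start on) matched 7 of the 10 genes. The 3 printed here belong to the members that rose, EGR1 and JUNB, and to a member that fell, FOSL2. Capitals mark matches to the motifs searched. EGR1 lies at chr5:138465229-138465528, JUNB at chr19:12791236-12791535 and FOSL2 at chr2:28392608-28392907, all on the plus strand.
EGR1: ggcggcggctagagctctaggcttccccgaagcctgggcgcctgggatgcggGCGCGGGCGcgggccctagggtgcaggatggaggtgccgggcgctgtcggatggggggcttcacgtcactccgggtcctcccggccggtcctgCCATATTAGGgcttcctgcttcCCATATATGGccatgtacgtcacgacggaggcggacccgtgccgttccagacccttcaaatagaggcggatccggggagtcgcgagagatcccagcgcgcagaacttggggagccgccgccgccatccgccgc
JUNB: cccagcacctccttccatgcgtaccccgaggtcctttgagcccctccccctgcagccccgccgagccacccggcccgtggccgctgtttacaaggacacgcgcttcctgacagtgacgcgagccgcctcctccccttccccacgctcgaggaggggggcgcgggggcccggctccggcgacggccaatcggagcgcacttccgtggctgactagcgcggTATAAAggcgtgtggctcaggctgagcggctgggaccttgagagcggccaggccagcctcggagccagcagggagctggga
FOSL2: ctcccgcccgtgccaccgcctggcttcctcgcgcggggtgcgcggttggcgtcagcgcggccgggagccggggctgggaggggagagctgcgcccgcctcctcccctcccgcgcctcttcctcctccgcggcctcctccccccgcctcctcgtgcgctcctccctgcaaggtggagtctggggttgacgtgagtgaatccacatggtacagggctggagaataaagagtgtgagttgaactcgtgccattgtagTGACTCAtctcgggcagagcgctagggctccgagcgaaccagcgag
The motifs searched were the CArG box (the core of a serum response element), the AP-1 site TGANTCA, the cyclic AMP response element TGACGTCA, the EGR site GCGNGGGCG, a single decamer of the p53 response element and the ETS site CCGGAA on both strands, and the TATA box TATAAA on the given strand. In the EGR1 window 2 CArG boxes started 105 and 83 bases before the start, and 1 EGR site started 198 bases before it. A CArG box was present in 1.29% of 27305 promoters of this length, and the EGR site in 9.28%. The JUNB window held a TATA box 31 bases before the start, a motif found in 7.71% of promoters. The FOSL2 window held 1 AP-1 site that began at base 5 from the start, a motif found in 7.76%. Among the other matched members, FOS and FOSB each held a TATA box and FOSB and IER2 each an ETS site, which 17.6% of promoters held. None of the 7 windows held the letters of the p53 element, which 6.54% of promoters held, or TGACGTCA, which 1.98% held. The search covers these letters in these windows and says nothing of binding.

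On the deposited values at 24 h, EGR1 and JUNB were higher with 5 ng of doxycycline than with 0 ng or 3 ng, while FOSL1, FOSL2 and ETV4 were lower with both doses than with 0 ng. On these values 3 of the 10 genes fell and 0 rose with 3 ng against 0 ng, where 23.0% of all genes were called down and 1.50% up (limma, Benjamini-Hochberg adjusted p under 0.05, here and throughout). With 5 ng against 0 ng, 2 rose and 3 fell, where 4.52% of all genes were called up and 23.5% down. Between 5 ng and 3 ng, 2 rose and 0 fell, where 1.79% and 0.755% were called. The 4 arrays of each group did not overlap for 5 of the 10 genes with 3 ng (29.4% of all genes), 5 with 5 ng (31.9%) and 2 with 5 ng against 3 ng (11.2%). The comparisons of 3 ng and of 5 ng with 0 ng share the 0 ng arrays. Because the members were chosen with earlier results of these data known, their counts beside the all-gene shares are descriptions and not a test of the set. Over the 10 genes the median log2 change was -0.34 for 3 ng and -0.30 for 5 ng against 0 ng, against -0.23 and -0.24 over all genes. After quantile normalization the calls were 2 up and 1 down with 3 ng, where 15.4% and 12.5% of all genes were called, and 3 up and 2 down with 5 ng, where 20.6% and 17.2% were called. The split of all calls moved with the scaling, the share of calls that were up being 6.13% as deposited, 55.1% after quantile normalization and 25.6% after centring each array for 3 ng against 0 ng. For 5 ng against 0 ng that share was 16.1%, 54.4% and 44.3% on the same 3 scales, and for 5 ng against 3 ng at 24 h it was 70.3%, 57.4% and 76.5%.

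**Figure D1:**
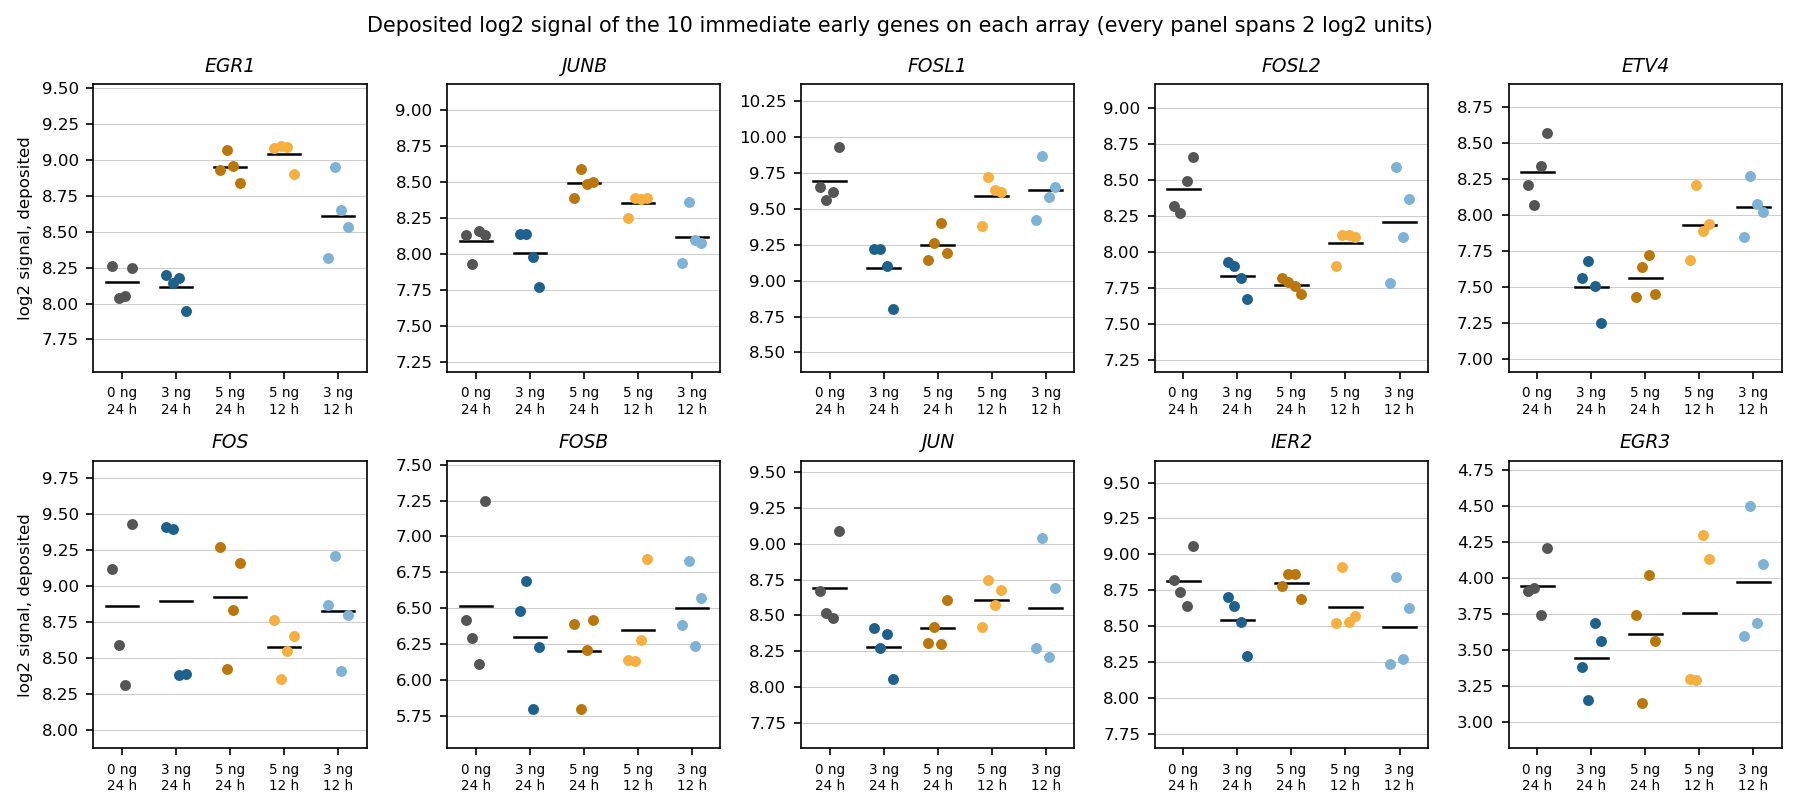
Deposited log2 signal (vertical axis, every panel spanning 2 log2 units) of the 10 genes on each of the 20 arrays, with points for arrays and bars for group means, at 0, 3 and 5 ng for 24 h and then at 5 ng and 3 ng for 12 h. EGR1 sits between 8.84 and 9.10 on the 8 arrays with 5 ng and between 7.95 and 8.26 on the 3 ng and 0 ng arrays of 24 h, and the arrays of FOS and FOSB overlap between all groups.

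EGR1 encodes a zinc finger factor that is among the first genes to respond to growth factors, and it had the widest range of group means of the 10. At 24 h its deposited log2 signal was 8.26, 8.04, 8.05 and 8.25 on the 0 ng arrays, 8.20, 8.14, 8.18 and 7.95 on the 3 ng arrays, and 8.93, 9.07, 8.96 and 8.84 on the 5 ng arrays. The 5 ng arrays lay above every other 24 h array, and the 3 ng and 0 ng arrays overlapped. At 12 h it was 9.08, 9.10, 9.09 and 8.90 with 5 ng, against 8.32, 8.95, 8.65 and 8.53 with 3 ng, so 1 array with 3 ng reached into the range of the 5 ng arrays. EGR1 rose by 0.80 ± 0.13 with 5 ng against 0 ng at 24 h (SE, limma adjusted p = 0.000102), which is 1.74-fold and 1.04 above the median change of all genes. Against 3 ng at 24 h, it rose by 0.83 ± 0.13 (adjusted p = 0.000997), or 1.78-fold. Both calls held on each scale and without any single array.

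With 3 ng against 0 ng at 24 h, EGR1 differed by -0.03 ± 0.13 on the deposited values (95% interval -0.31 to 0.25, adjusted p = 0.915), which is 0.20 above the median of all genes. After quantile normalization the same comparison gave a rise of 0.44 (adjusted p = 0.0056), with 8.33, 8.25, 8.39 and 8.33 on the 3 ng arrays, against 7.95, 7.90, 7.99 and 7.70 on the 0 ng arrays. On that scale the groups did not overlap and the 24 h means stood in the order of dose, whereas on the deposited scale 3 ng and 0 ng could not be ordered. With each array centred on its median, the EGR1 change was 0.19 (adjusted p = 0.505), and the groups overlapped. EGR3, a relative of EGR1, had group means of 3.95 ± 0.19, 3.44 ± 0.23 and 3.61 ± 0.37 at 0, 3 and 5 ng for 24 h (SD, n = 4 each). EGR3 was not called in the model of 5 group means as deposited or after quantile normalization. Its change of -0.50 with 3 ng against 0 ng had a 95% interval of -1.01 to 0.01, although the arrays of those groups did not overlap, and it passed when only those groups were fitted (adjusted p = 0.0326).

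JUNB encodes an AP-1 subunit that can restrain JUN. Its deposited log2 signal at 24 h was 8.13, 7.93, 8.16 and 8.13 with 0 ng, 8.14, 8.14, 7.98 and 7.77 with 3 ng, and 8.39, 8.59, 8.49 and 8.50 with 5 ng. The 5 ng arrays were all above the others, by a small margin, and the 3 ng and 0 ng arrays overlapped. JUNB rose by 0.41 ± 0.13 with 5 ng against 0 ng (adjusted p = 0.0184), which is 1.32-fold and 0.65 above the median of all genes. Leaving out replicate 2 of the 0 ng arrays (0.35), or replicate 2 of the 24 h arrays with 5 ng (0.37), ended that call, and after quantile normalization the rise was 0.77 (adjusted p = 5.32e-06). Against 3 ng at 24 h, 5 ng gave a rise of 0.49 ± 0.13 (adjusted p = 0.0387), a call lost when any 1 of the 8 arrays was left out (0.41 to 0.53, adjusted p from 0.0535 to 0.185). After quantile normalization that rise was 0.39 (adjusted p = 0.0181), and the groups did not overlap. With 3 ng against 0 ng JUNB differed by -0.08 ± 0.13 as deposited (95% interval -0.34 to 0.18) but rose by 0.39 after quantile normalization (adjusted p = 0.00741), so its direction there depends on the scaling. With each array centred on its median, that difference was 0.15 and not called (adjusted p = 0.586). The pooled SD of JUNB between replicates was 0.13 as deposited, against a median of 0.28 over all genes, and 0.14 after quantile normalization, against a median of 0.17.

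JUN, the AP-1 subunit that forms the most active dimers with FOS proteins, had group means of 8.69 ± 0.28, 8.28 ± 0.16 and 8.41 ± 0.14 at 0, 3 and 5 ng for 24 h. Its differences from 0 ng were -0.41 ± 0.18 with 3 ng (adjusted p = 0.0976) and -0.28 ± 0.18 with 5 ng (adjusted p = 0.275), and neither passed, although the 3 ng arrays all lay below the 0 ng arrays. With a trend in eBayes the 3 ng difference was called (-0.41, adjusted p = 0.0436). After quantile normalization they were 0.06 and 0.11, also not called, so JUN has no direction here that holds on both scales.

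**Figure D2:**
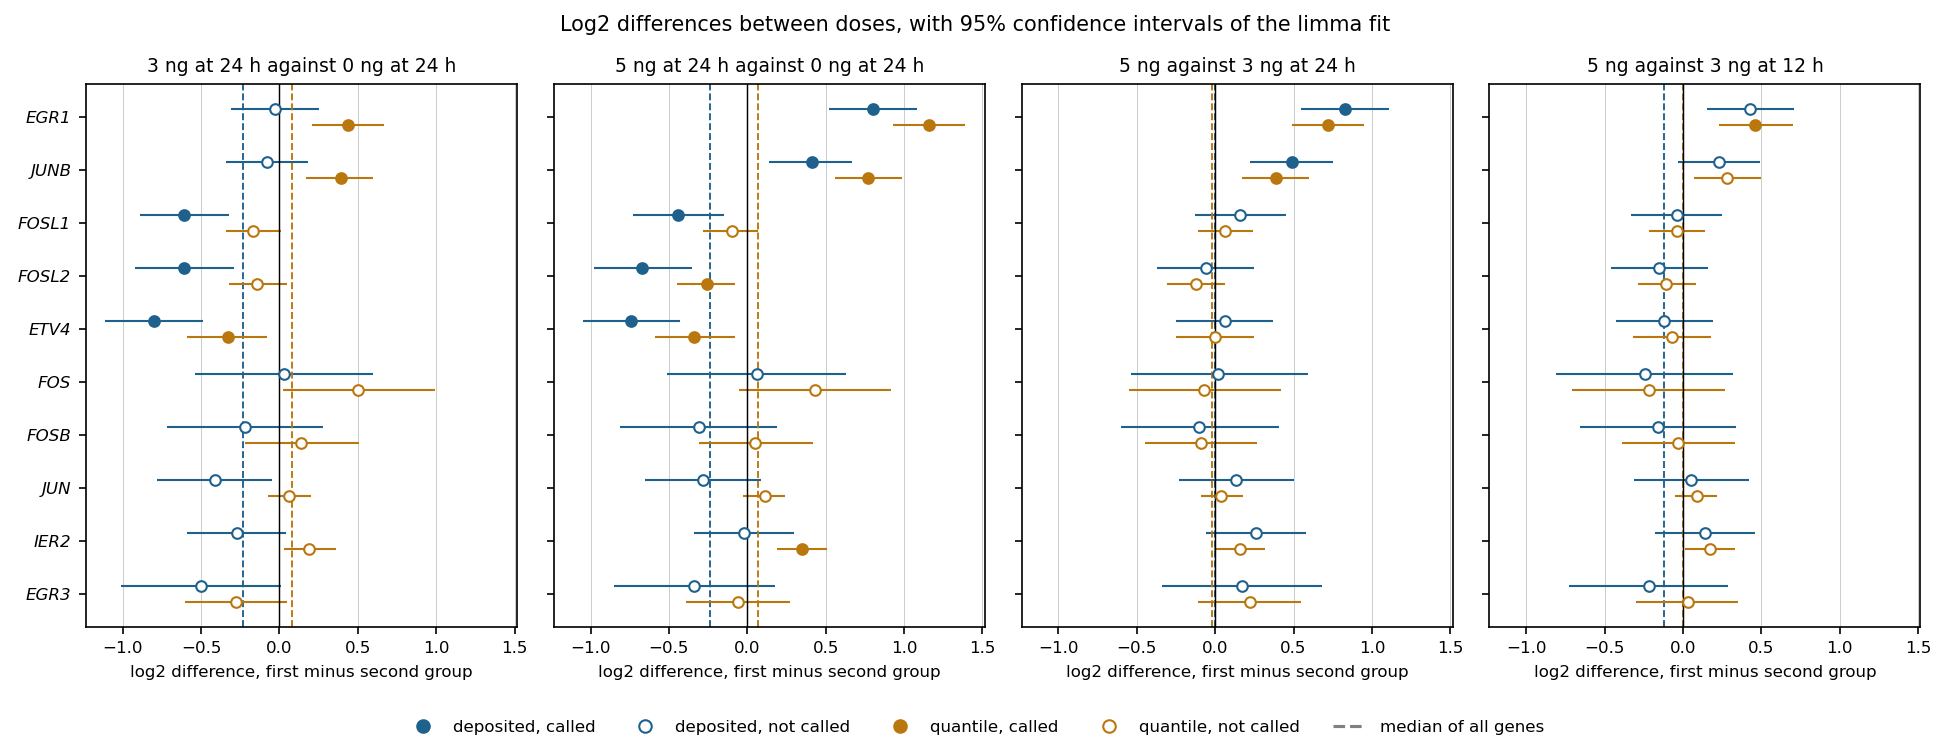
Log2 differences between doses for the 10 genes (horizontal axis), with 95% confidence intervals of the limma fit, as deposited and after quantile normalization, and with dashed lines at the median of all genes on each scale. EGR1 is called with 5 ng against 0 ng on both scales (0.80 and 1.16), while FOSL1 is called there only as deposited (-0.44, against -0.10 after quantile normalization).

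FOSL1 and FOSL2 encode the FOS-related proteins FRA1 and FRA2, which lack the strong activation domain of FOS. The deposited log2 signal of FOSL1 at 24 h was 9.65, 9.56, 9.62 and 9.93 with 0 ng, 9.22, 9.22, 9.10 and 8.80 with 3 ng, and 9.14, 9.26, 9.40 and 9.19 with 5 ng. The 0 ng arrays lay above all arrays of both doses, which overlapped each other. FOSL1 fell by 0.61 ± 0.14 with 3 ng (adjusted p = 0.00325) and by 0.44 ± 0.14 with 5 ng (adjusted p = 0.0205). Relative to the median of all genes these changes were -0.37 and -0.20, and after quantile normalization they were -0.17 (adjusted p = 0.159) and -0.10 (adjusted p = 0.376), no longer called. The 5 ng call also ended when replicate 4 of the 0 ng arrays (-0.36), or replicate 1 (-0.41) or 4 (-0.42) of the 24 h arrays with 5 ng, was left out.

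FOSL2 read 8.32, 8.27, 8.49 and 8.66 with 0 ng for 24 h, 7.93, 7.90, 7.82 and 7.67 with 3 ng, and 7.82, 7.79, 7.76 and 7.71 with 5 ng. All 8 induced arrays were below all 4 uninduced ones. FOSL2 fell by 0.61 ± 0.15 with 3 ng (adjusted p = 0.00578) and by 0.67 ± 0.15 with 5 ng (adjusted p = 0.00197), -0.37 and -0.43 relative to the median of all genes. After quantile normalization the change with 5 ng was -0.26 and still called (adjusted p = 0.0248), while that with 3 ng was -0.14 and not called (adjusted p = 0.273).

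FOS and FOSB encode the activating FOS proteins, and both varied widely within groups. FOS read 9.12, 8.59, 8.31 and 9.43 on the 0 ng arrays, 9.41, 9.40, 8.38 and 8.39 on the 3 ng arrays and 9.27, 8.42, 8.83 and 9.16 on the 5 ng arrays of 24 h. High and low arrays occurred in each group, and the pooled SD was 0.42 for FOS and 0.36 for FOSB, against a median of 0.28 over all genes. FOS differed from 0 ng by 0.03 ± 0.27 with 3 ng and 0.06 ± 0.27 with 5 ng, with 95% intervals of -0.54 to 0.60 and -0.51 to 0.63. FOSB differed by -0.22 ± 0.24 and -0.31 ± 0.24. Neither gene was called in the model of 5 group means as deposited or after quantile normalization. When a replicate block was added to the quantile values, FOS rose by 0.50 with 3 ng against 0 ng at 24 h (adjusted p = 0.0483).

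IER2, a small nuclear protein encoded by a rapidly induced gene, averaged 8.82 ± 0.18, 8.54 ± 0.18 and 8.80 ± 0.08 at 0, 3 and 5 ng for 24 h. IER2 differed by -0.02 ± 0.15 as deposited (5 ng against 0 ng, 95% interval -0.34 to 0.30) and rose by 0.35 after quantile normalization (adjusted p = 0.00129), with 8.95, 8.97, 8.99 and 8.69 on the 5 ng arrays, against 8.52, 8.59, 8.60 and 8.50 on the 0 ng arrays. As deposited, that change stood 0.22 above the all-gene median. With each array centred on its median, it was 0.25 and not called (adjusted p = 0.296).

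ETV4, an ETS factor of the PEA3 group whose transcription follows ERK activity, changed most among the members that fell. Its deposited log2 signal at 24 h was 8.21, 8.07, 8.34 and 8.57 with 0 ng, 7.56, 7.68, 7.51 and 7.25 with 3 ng, and 7.43, 7.64, 7.72 and 7.45 with 5 ng. The uninduced arrays were the 4 highest, and both doses overlapped. ETV4 fell by 0.80 ± 0.15 with 3 ng (adjusted p = 0.000567) and by 0.74 ± 0.15 with 5 ng (adjusted p = 0.000717), to 0.575 and 0.600 of the 0 ng level. Relative to the median of all genes the changes were -0.56 and -0.50. After quantile normalization they were -0.33 (adjusted p = 0.0449) and -0.34 (adjusted p = 0.0339), and the call with 5 ng was lost when each array was centred on its median (-0.47, adjusted p = 0.0566). Between 5 ng and 3 ng at 24 h, the difference was 0.06 ± 0.15 for ETV4, -0.06 ± 0.15 for FOSL2 and 0.16 ± 0.14 for FOSL1, with 95% intervals of -0.25 to 0.37, -0.37 to 0.25 and -0.13 to 0.45.

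**Figure D3:**
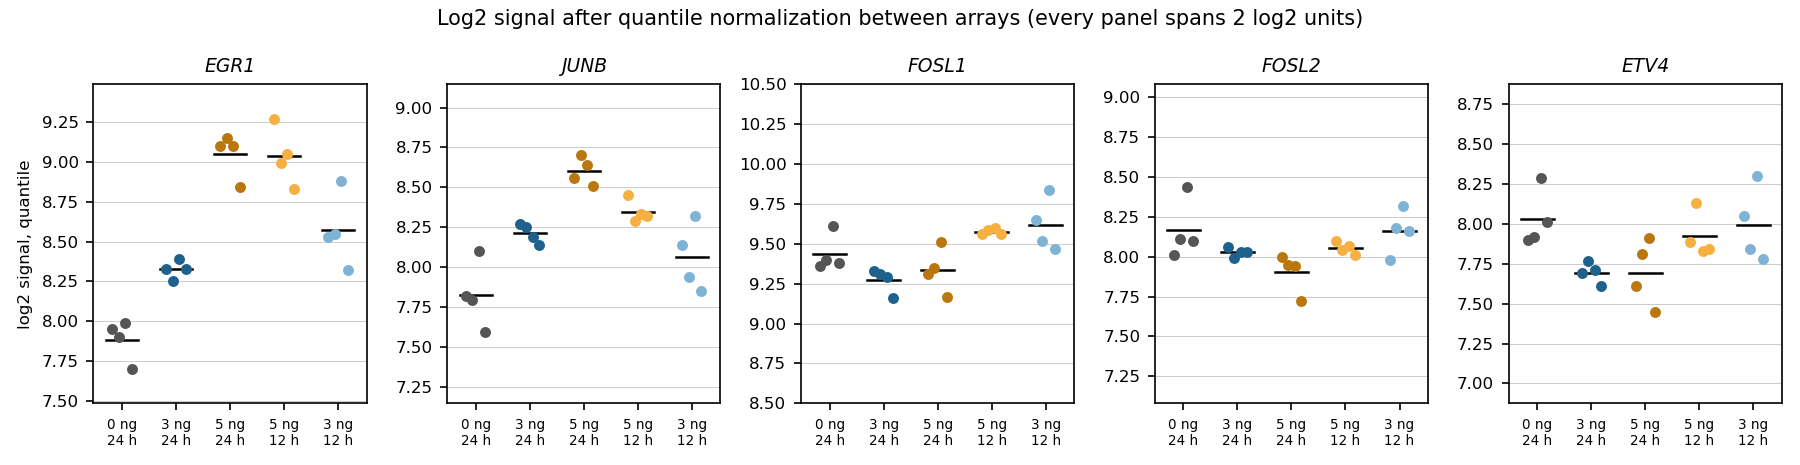
Log2 signal after quantile normalization between arrays (vertical axis, every panel spanning 2 log2 units) of EGR1, JUNB, FOSL1, FOSL2 and ETV4, with points for arrays and bars for group means. For EGR1 the 4 arrays with 3 ng for 24 h lie between 8.25 and 8.39, above the 0 ng arrays (7.70 to 7.99) and below the 5 ng arrays of 24 h (8.84 to 9.15).

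At 12 h, no member was called with 5 ng against 3 ng on the deposited values, where limma called 0.0217% of all genes. In that comparison 1 member and 1082 of the 18417 genes had an unadjusted p under 0.05. EGR1 was 0.43 ± 0.13 higher (95% interval 0.15 to 0.71, adjusted p = 0.606), and after quantile normalization it rose by 0.46 (adjusted p = 0.0313), the only member called where 2.75% of all genes were. JUNB differed by 0.23 ± 0.13 as deposited and 0.28 after quantile normalization, called on neither scale. The 12 h means of JUNB were 8.35 ± 0.07 with 5 ng and 8.12 ± 0.18 with 3 ng (SD, n = 4 each). FOSL1 averaged 9.59 ± 0.15 and 9.63 ± 0.19, FOSL2 8.06 ± 0.11 and 8.21 ± 0.35, and ETV4 7.93 ± 0.21 and 8.05 ± 0.17, in 5 ng and 3 ng cells, and the arrays of both doses overlapped for each of them.

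Against the uninduced cells, which were collected at 24 h, dose and time differ together in the 12 h groups. With 5 ng for 12 h, EGR1 rose by 0.89 ± 0.13 against 0 ng (adjusted p = 0.00012) and was the only member called, where 3.44% of all genes were called up and 11.5% down. The groups did not overlap for 3 of the 10 genes (20.2% of all genes), namely EGR1, JUNB and FOSL2. JUNB differed by 0.27 ± 0.13 (adjusted p = 0.172) and rose by 0.52 after quantile normalization (adjusted p = 0.00077). With 3 ng for 12 h, limma called 0 members as deposited, where 2.82% of all genes were called. In that comparison 2 members and 3492 of the 18417 genes had an unadjusted p under 0.05. EGR1 was 0.46 ± 0.13 higher there (adjusted p = 0.0674) and the 1 member whose groups did not overlap (4.21% of all genes), and the change passed without replicate 1 of 3 ng for 12 h (0.56) and after quantile normalization (0.68, adjusted p = 0.00035). On that scale limma called 1 member up with 3 ng for 12 h, where 6.61% of all genes were called up and 8.57% down. With 5 ng for 12 h it called 3 up and 0 down, where 11.5% and 14.3% were called.

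With 3 ng, EGR1, FOSL1 and ETV4 were lower at 24 h than at 12 h, 3 of the 10 genes, where 4.36% of all genes were called down and 0.0706% up. Time since the medium was renewed may also differ between 12 h and 24 h at either dose. With no uninduced cells at 12 h, its part was not tested. EGR1 fell by 0.50 ± 0.13 (adjusted p = 0.0355), to a mean of 8.12 ± 0.11 at 24 h, against 8.61 ± 0.26 at 12 h. FOSL1 fell by 0.55 ± 0.14 (adjusted p = 0.0242), with means of 9.09 ± 0.20 at 24 h and 9.63 ± 0.19 at 12 h. ETV4 fell by 0.55 ± 0.15 (adjusted p = 0.0342), with means of 7.50 ± 0.18 at 24 h and 8.05 ± 0.17 at 12 h. The groups of 4 arrays did not overlap for these genes, where this held for 8.52% of all genes, but the all-gene median was itself shifted by -0.22 as deposited and by 0.07 after quantile normalization. After quantile normalization FOSL1 kept its call (-0.35, adjusted p = 0.00826), EGR1 (-0.24) and ETV4 (-0.30) lost theirs, and IER2 rose by 0.29 (adjusted p = 0.0144), where 9.92% of all genes were called up and 6.06% down.

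Each of these calls was lost on omitting any of several single arrays, in some cases with a fall no smaller than with all arrays. The EGR1 fall was no longer called without replicate 2 (-0.38) or 4 (-0.52) of 3 ng for 12 h, or without replicate 1 (-0.52), 2 (-0.50), 3 (-0.52) or 4 (-0.44) of 3 ng for 24 h. For ETV4 the call was lost without replicate 2 (-0.48) or 4 (-0.57) of the 12 h arrays, or replicate 1 (-0.57), 3 (-0.56) or 4 (-0.47) of the 24 h arrays. For FOSL1 it was lost without replicate 2 (-0.46) or 4 (-0.54) at 12 h, or replicate 3 (-0.55) or 4 (-0.45) at 24 h. FOSL2, at -0.38 ± 0.15 and not called, passed without replicate 1 of 3 ng for 12 h (-0.52).

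With 5 ng, 0 members were called between 24 h and 12 h on the deposited values by limma, where 3.97% of all genes were called. In that comparison 2 members and 2235 of the 18417 genes had an unadjusted p under 0.05. EGR1 averaged 8.95 ± 0.09 at 24 h and 9.04 ± 0.10 at 12 h, a difference of -0.09 ± 0.13 (95% interval -0.37 to 0.19). FOSL1 differed by -0.34 ± 0.14 and ETV4 by -0.37 ± 0.15, with adjusted p of 0.272 and 0.255. After quantile normalization IER2 rose by 0.28 (adjusted p = 0.0173), where 18.4% of all genes were called. The difference between the dose effects at 24 h and 12 h was 0.40 ± 0.19 for EGR1 (95% interval 0.01 to 0.80, adjusted p = 1). In that interaction limma called 0 members and 0 genes of all, and 1 member and 391 of all genes had an unadjusted p under 0.05. A loss of EGR1 signal over time at 3 ng and not at 5 ng is thus not shown to differ between the doses.

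**Figure D4:**
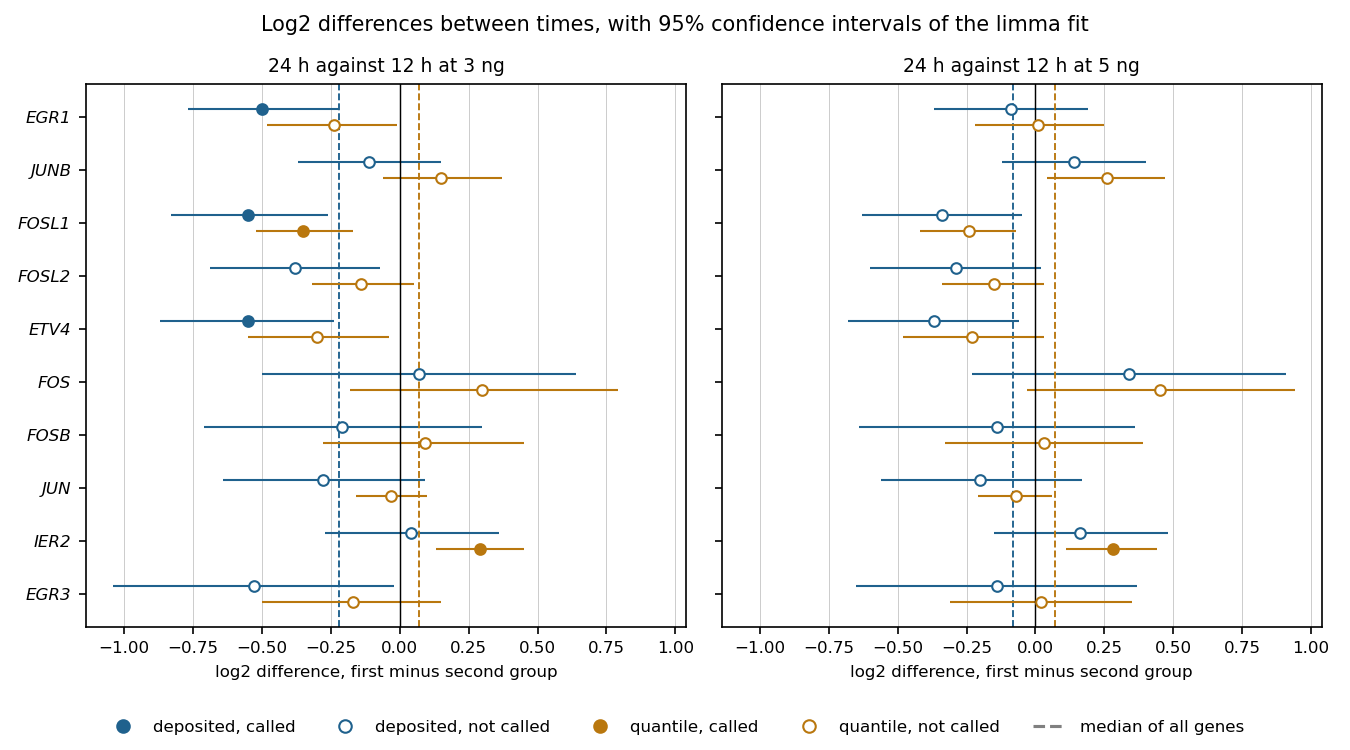
Log2 differences of 24 h against 12 h for the 10 genes at 3 ng and at 5 ng (horizontal axis), with 95% confidence intervals of the limma fit, as deposited and after quantile normalization, and with dashed lines at the median of all genes. At 3 ng, EGR1, FOSL1 and ETV4 are called as deposited (-0.50, -0.55 and -0.55), and at 5 ng no member is called as deposited.

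Across the 20 arrays after quantile normalization, the members followed more than 1 pattern. JUNB and EGR1 varied together with Pearson's r of 0.86, FOSL1 and ETV4 with 0.83, FOSL2 and ETV4 with 0.72, JUNB and IER2 with 0.71, and FOS and FOSB with 0.68. These describe the arrays, which share 5 groups, and are not tests. EGR1, ETV4 and FOSL2 had the widest ranges of group means as deposited (0.93, 0.80 and 0.67), whereas after quantile normalization EGR1, JUNB and FOS did (1.16, 0.77 and 0.52). Among all genes, those most like EGR1 were TRAF1 (r = 0.971), MAPKBP1 (0.970), SLC41A1 (0.969), SUSD6 (0.967) and ADGRG1 (0.965). For ETV4 they were SF3A2 (0.913), SUN2 (0.901), CPSF7 (0.894), TECR (0.889) and AKT1 (0.882). For FOSL2 they were TMEM147 (0.844), USP36 (0.837), RCE1 (0.834), EIF4G1 (0.819) and FJX1 (0.812).

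Of 30 other immediate early and AP-1 genes measured, 2 rose and 7 fell with 3 ng against 0 ng at 24 h, 4 rose and 6 fell with 5 ng against 0 ng, and 2 rose and 0 fell with 5 ng against 3 ng. Their median change was -0.17 with 3 ng and -0.04 with 5 ng against 0 ng, beside -0.23 and -0.24 for all genes. Over all genes the shares called up and down were 1.50% and 23.0%, 4.52% and 23.5%, and 1.79% and 0.755% in these comparisons. After quantile normalization the counts were 12 up and 2 down, 13 up and 5 down, and 4 up and 3 down, beside all-gene shares of 15.4% and 12.5%, 20.6% and 17.2%, and 5.96% and 4.42%. NR4A1, an orphan nuclear receptor gene induced by growth factors, had group means of 5.75 ± 0.31, 6.23 ± 0.09 and 7.17 ± 0.04 at 0, 3 and 5 ng for 24 h, with no overlap between 5 ng and 0 ng. It rose by 1.42 ± 0.15 with 5 ng against 0 ng (adjusted p = 2.34e-07) and by 0.94 ± 0.15 with 5 ng against 3 ng (adjusted p = 0.00086). BHLHE40, a transcriptional repressor, rose by 1.16 ± 0.14 with 5 ng against 0 ng and by 0.61 ± 0.14 against 3 ng (adjusted p = 2.22e-06 and 0.0199). Of the PEA3 relatives of ETV4, ETV5 fell by 0.69 ± 0.14 with 3 ng (adjusted p = 0.00157) and ETV1 by 1.39 ± 0.30 with 5 ng (adjusted p = 0.00113). ETS2, a further ETS factor, fell by 0.86 ± 0.17 with 3 ng (adjusted p = 0.000748) and by 1.11 ± 0.17 with 5 ng (adjusted p = 2.88e-05). SRF, which binds the CArG box, fell by 0.67 ± 0.14 with 3 ng (adjusted p = 0.00125). Genes here and in the lists below were named by the size of their called change in each comparison. A value given for 1 dose only therefore does not make a change particular to that dose.

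Upstream, 0 of 21 genes of the EGF receptor and ERK pathway rose and 7 fell with 3 ng against 0 ng, and 1 rose and 6 fell with 5 ng. For this and the following lists the all-gene shares called up and down were 1.50% and 23.0% with 3 ng and 4.52% and 23.5% with 5 ng, or 15.4% and 12.5% and 20.6% and 17.2% after quantile normalization. For 5 ng against 3 ng at 24 h the shares were 1.79% and 0.755%, or 5.96% and 4.42% after quantile normalization. The ERK-activated kinase gene RPS6KA3 changed by -0.81 ± 0.19 with 3 ng and -0.85 ± 0.19 with 5 ng (adjusted p = 0.00424 and 0.00198), and ERRFI1, which restrains the EGF receptor, by -0.59 ± 0.16 and -0.78 ± 0.16 (adjusted p = 0.00981 and 0.000804). After quantile normalization the counts were 4 up and 1 down with 3 ng and 6 up and 4 down with 5 ng, and the balance of that list moved with the scaling as that of all genes did. Of 15 MAP kinase feedback genes, 1 rose and 4 fell with 3 ng, 3 rose and 7 fell with 5 ng, and 2 rose with 5 ng against 3 ng, against 4 up and 0 down, 6 up and 2 down, and 4 up and 2 down after quantile normalization. DUSP1, a phosphatase that acts on JNK and p38, rose by 0.56 ± 0.19 with 3 ng and 0.94 ± 0.19 with 5 ng (adjusted p = 0.0354 and 0.000676), while DUSP6, a phosphatase specific for ERK, fell by 0.60 ± 0.16 and 0.99 ± 0.16 (adjusted p = 0.0103 and 8.88e-05). SPRY1, an inhibitor of receptor tyrosine kinase signalling, rose by 0.75 ± 0.15 with 5 ng against 0 ng and by 0.89 ± 0.15 against 3 ng (adjusted p = 0.000605 and 0.00131). Of 12 JNK and p38 pathway genes, 1 rose and 4 fell with 3 ng and 2 rose and 5 fell with 5 ng, and after quantile normalization 4 rose and 4 fell, and 6 rose and 2 fell. MAPK13, a p38 kinase gene, rose by 0.71 ± 0.13 with 3 ng and 1.34 ± 0.13 with 5 ng (adjusted p = 0.000611 and 1.09e-07), and MAP3K5, a kinase upstream of JNK and p38, fell by 0.93 ± 0.20 and 0.99 ± 0.20 (adjusted p = 0.00197 and 0.000769).

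Downstream, 1 of 18 AP-1 target genes rose and 5 fell with 3 ng against 0 ng, and 2 rose and 5 fell with 5 ng, against 5 up and 2 down and 8 up and 3 down after quantile normalization. The deposited counts of falls, 5 of 18, stood beside 23.0% and 23.5% of all genes called down. MMP3, a matrix protease gene, fell by 0.74 ± 0.25 with 3 ng and by 1.53 ± 0.25 with 5 ng (adjusted p = 0.0386 and 9.99e-05), and the chemokine gene CXCL8 by 0.85 ± 0.18 and 1.02 ± 0.18 (adjusted p = 0.00158 and 0.000169). TIMP1, a protease inhibitor gene, rose by 0.89 ± 0.14 with 5 ng (adjusted p = 7.69e-05), and the cytokine gene IL6 by 0.72 ± 0.15 and 0.76 ± 0.15 (adjusted p = 0.00186 and 0.000753). Of 9 EGR target genes, 0 rose and 2 fell with 3 ng, and 1 rose and 2 fell with 5 ng, against 4 up and 0 down and 4 up and 1 down after quantile normalization. NAB1, a corepressor of EGR1, fell by 0.58 ± 0.21 with 3 ng and by 0.71 ± 0.21 with 5 ng (adjusted p = 0.0464 and 0.0131), the growth factor gene PDGFA by 0.60 ± 0.16 and 0.51 ± 0.16 (adjusted p = 0.0108 and 0.0219), and ICAM1, an adhesion molecule, rose by 0.43 ± 0.12 with 5 ng (adjusted p = 0.00943). Of the falls named for genes outside the 10 members, those of SRF, ERRFI1, DUSP6, MMP3 and NAB1 with 3 ng and of PDGFA with both doses were no longer called after quantile normalization.

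Proliferation markers moved in the same comparisons. All 9 fell with 3 ng and with 5 ng against 0 ng, with medians of -2.63 and -3.88. Between 5 ng and 3 ng at 24 h, 8 of 9 fell, with a median of -1.29, where 0.755% of all genes were called down. Of 5 p53 responders, 4 rose with 3 ng, 5 with 5 ng and 4 with 5 ng against 3 ng at 24 h as deposited. In the last of these comparisons 1.79% of all genes were called up. After quantile normalization all 5 rose with 3 ng and with 5 ng against 0 ng, where 15.4% and 20.6% of all genes were called up. The responder not called with 3 ng as deposited was thus called on that scale. MDM2, a p53 target that encodes an inhibitor of p53, differed as deposited by 0.18 with 3 ng against 0 ng (adjusted p = 0.438). With 5 ng it rose by 0.47 (adjusted p = 0.0174). The part that cell cycle state plays in the values of the immediate early genes was not tested. Of 7 mammary epithelial markers, 0 rose and 1 fell with 3 ng and 5 rose and 1 fell with 5 ng against 0 ng, and 6 rose and 1 fell with each dose after quantile normalization. KRT5 rose by 0.66 ± 0.13 and EPCAM, an epithelial adhesion gene, fell by 0.85 ± 0.21 with 5 ng (adjusted p = 0.000688 and 0.00424). The mean log2 signal of these 7 lay between 11.38 and 11.82 on the 0 ng arrays, 11.39 and 11.67 on the 3 ng arrays and 11.74 and 11.90 on the 5 ng arrays of 24 h, and its part in the members' values was not tested. Of 8 fibroblast markers, limma called 0 with 3 ng and 0 with 5 ng against 0 ng. An unadjusted p under 0.05 was found for 0 and 2 of the 8, beside 6330 and 6706 of all 18417 genes. The mean log2 signal of these 8 lay between 3.30 and 3.65 on the 0 ng arrays, 3.12 and 3.49 on the 3 ng arrays and 2.76 and 3.36 on the 5 ng arrays of 24 h. For 6 immune markers the lowest array mean was 3.73, 3.71 and 3.46 at 0, 3 and 5 ng, and for 5 endothelial markers it was 3.08, 2.90 and 2.65. The immune genes CD14 and ITGAM changed by -1.43 ± 0.23 and 1.10 ± 0.17 with 5 ng against 0 ng (adjusted p = 6.82e-05 and 4.08e-05).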

How the data were processed

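Total RNA of 20 samples was measured on Affymetrix arrays. The deposited values are log2 signals with 1 value per transcript cluster and array. Per the submitters' processing notes, the tools were limma, Affymetrix Power Tools, GCRMA and GCOS, with no versions or roles stated. The sources used here do not state the scaling between arrays. The number of arrays limits the precision.

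Of 33297 clusters, 19460 had 1 gene symbol, 1754 several and 12083 were not listed in the platform annotation. The brightest cluster stood for each of 769 genes with more than 1, which left 18417 genes, all of them tested. With limma 3.58.1 (R 4.3.3), 1 model of 5 group means over the 20 arrays was used, with 15 residual degrees of freedom and eBayes, and p-values were adjusted over all genes with Benjamini-Hochberg (threshold 0.05). The fit was run on simulated data with independent noise, known changes in some genes and no shift between whole arrays. That run therefore does not address the scaling between arrays. Each list outside the 10 members contributes up to 4 called genes with the largest change in each comparison, and CDKN1A and MDM2 always. For the 3 members with the widest range of deposited group means, the 5 genes most correlated with them are named. The members and gene lists were chosen with earlier results of these data known. No 2 arrays held identical values. Alternatives covered the scaling, the genes and arrays used, eBayes options, array weights and a replicate block.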

Additional observations from a re-analysis of the deposited data

Results flagged for a closer look

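In 5 of the 50 groups of 4 arrays (10 genes in 5 groups), 1 array stood apart from the other three, and chance alone marks about 1 in 20 such groups. The lowest or highest array was set apart by a gap to its neighbour above Dixon's critical share of the group's range. With 5 ng for 12 h, replicate 1 was lowest for FOSL2 at 7.90 (nearest array 8.10) and for JUNB at 8.25 (nearest 8.38). In the same group replicate 4 was lowest for EGR1 at 8.90 (nearest 9.08), and replicate 2 was highest for IER2 at 8.91 (nearest 8.57). With 0 ng for 24 h, replicate 2 was lowest for JUNB at 7.93 (nearest 8.13).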

How the results depend on the processing

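Over 11 alternatives and the omission of each of the 20 arrays, 9 of the 14 member calls made on the deposited values were lost at least once, 8 of them under an alternative and 6 when 1 array was omitted. The other 5 were never lost, namely the 3 calls of EGR1 that involve 5 ng, ETV4 with 3 ng against 0 ng and FOSL2 with 5 ng against 0 ng at 24 h. Calls were also gained, by FOS (0.50, quantile normalization with the block), EGR3 (-0.50, only the groups compared) and JUN (-0.41, trend in eBayes) with 3 ng against 0 ng at 24 h. A change of sign is given below where the change was called on either side. After quantile normalization EGR1 (0.44) and JUNB (0.39) turned upward with 3 ng against 0 ng at 24 h, IER2 (0.35) with 5 ng against 0 ng at 24 h, and JUN (0.18) with 5 ng for 12 h against 0 ng. The same fit with the replicate block gave 0.44, 0.39, 0.35 and 0.18, and turned IER2 with 3 ng to 0.19. The cause was not tested. Members called with 3 ng against 0 ng at 24 h numbered 3, against 1 with each array centred and 5 with quantile normalization and the block. With 5 ng against 0 ng they numbered 5, against 3 when centred. With 5 ng against 3 ng at 24 h they numbered 2, against 1 when centred, with only the groups compared, with all clusters, with the replicate block, and without any single array (lowest 1, highest 1). At 12 h they numbered 0, against 1 after quantile normalization with or without the block. For 24 h against 12 h at 3 ng they numbered 3, against 0 when centred, with only the groups compared or with array weights, and from 0 to 4 without single arrays. At 5 ng they numbered 0, against 1 after quantile normalization, 3 with array weights and 3 with quantile normalization and the block. For 3 ng for 12 h against 0 ng they numbered 0, against 1 after quantile normalization with or without the block, without the dimmest 30% of genes (12893 left, EGR3 removed) or with a trend in eBayes, and 0 to 1 without single arrays. For 5 ng for 12 h against 0 ng they numbered 1, against 3 with array weights or quantile normalization, block or not. Quantile normalization alone called 25.7% of all genes there, and 15.2% with 3 ng for 12 h.

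Counts over all genes moved as well. With 3 ng against 0 ng at 24 h they were 4504, from 3175 when centred to 6498 with array weights, and with 5 ng 5166, from 4902 to 7422. With 5 ng against 3 ng they were 468 at 24 h and 4 at 12 h, and up to 2489 and 834 with quantile normalization and the block. With 24 h against 12 h they were 816 at 3 ng and 731 at 5 ng, and up to 3685 and 4079 in that fit. For 3 ng for 12 h against 0 ng the count was 519, from 232 with only the groups compared to 3620 when centred, and for 5 ng for 12 h it was 2750, from 1848 to 5336. Single arrays moved these counts too. The 4504 became 2931 on omitting 3 ng replicate 4 of 24 h, or 2782 on omitting uninduced replicate 4. The 468 became 276 to 304 on omitting 3 ng replicate 4 or 5 ng replicate 3 or 4 of 24 h, and the 816 became 484 to 1395 on omitting any 3 ng array of 12 h or replicate 4 of 24 h. The 4 became 0 to 11 on omitting any 12 h array but 3 ng replicate 2. The 519 became 2782 on omitting 3 ng replicate 2 of 12 h, and 257 to 319 on omitting replicate 1 or 4 of that group or uninduced replicate 1, 2 or 4. The 2750 became 1510 to 1819 on omitting 5 ng replicate 1 of 12 h or uninduced replicate 1 or 4. The replicate numbers were not taken to pair the samples in the main model. The rule asked that every correlation between same-numbered arrays' deviations be over 0.1. A modest batch shared by same-numbered arrays could fail that rule, so it does not exclude a pairing. Over 40 pairs these correlations were -0.18 to 0.50 as deposited, 13 of them over 0.1, and -0.03 to 0.22 after quantile normalization, 11 of them over 0.1. With 4 candidate partners for each array, the best had the same number in 17 of 40 cases as deposited and in 27 of 40 after quantile normalization. That is a hint of pairing from the data and not from the labels. The dim EGR3 signal and the wide spread of FOS and FOSB limit what could be called.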
